A study of Drosophila melanogaster
Drosophila virilis with 26 samples.

Results

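The genes described here encode the subunits of the proteasome of Drosophila melanogaster. They were taken as every D. melanogaster gene in the deposited count table whose name begins with Prosalpha, Prosbeta, Pros followed by a digit, Rpn followed by a digit or Rpt followed by a digit, which gave 47 of 13802 gene names. Of these, 32 are the ubiquitous subunits and 15 are paralogues with a suffix T or R, here called testis-type. Rpn13R was placed among the 15 by its suffix alone. The rule used gene names and no measured value, but it was set with earlier results of these data known.

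The proteasome is the large protease that destroys proteins marked with ubiquitin. Its core particle, the 20S complex, is a barrel of outer alpha rings and inner beta rings, and the beta rings carry the catalytic sites. The regulatory particle, the 19S complex, caps the barrel: its base holds ATPases of the AAA family that unfold substrates, large scaffolds and ubiquitin receptors, and its lid removes the ubiquitin chain. In flies, many core and some regulatory subunits have a second copy that is used in the male germline, and the early embryo removes maternal proteins through the ubiquitin pathway on a timed schedule.

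The study asked whether, within a low-volume RNA-seq protocol, the reads on a transcript change in step with its amount. Levels are set here mainly between protocols. All 26 libraries came from total RNA of pooled whole embryos of 0-4 hrs, with D. virilis RNA mixed into D. melanogaster RNA, and 1 library was made for each protocol and mixture. The low-volume groups, each from 1 ng of RNA, were Clontech (cDNA made with TruSeq reagents, then a low-input library kit), TotalScript (oligo dT priming, with tagmentation), SMART-seq2 (whole-transcript pre-amplification, then tagmentation), and SMART-seq2 with the tagmentation volume divided by 2.5 (2.5x) or by 5 (5x). The comparison group was TruSeq, the standard kit, from 100 ng of RNA. Each group had a 0, a 5, a 10 and a 20% D. virilis library, and 2.5x and 5x each had a 1% library as well.

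The libraries of a protocol are separate libraries of the same RNA sources. The p-values below therefore measure technical spread among 4 libraries and say nothing of spread between embryos. The reads counted on D. melanogaster genes ran from 1561692 to 55055710 per library, with TotalScript at 1561692 to 3395646 and TruSeq at 18971801 to 55055710. Each level below is in CPM, the count scaled to a D. melanogaster total of 1000000 reads, and is not divided by transcript length. A level can thus be compared between libraries for 1 gene, but not between genes. Alignments of reads with no unique place, which were not counted on genes, made up 32.2 to 41.2% of all alignments in TotalScript and 5.96 to 9.27% in TruSeq. All 6 maternal and all 8 zygotic markers of the early embryo had reads in these libraries. Among 12 follicle cell and yolk markers, 11 had 10 reads or fewer over all 26 libraries.

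Of the 32 ubiquitous subunits, 31 had reads in every library, and the lowest count of any of them in any library was 167. Prosalpha1, a subunit of the alpha ring, was the exception and had 0 reads in all 26 libraries. The gene CG30382, which the RefSeq table names Prosalpha1R, also had 0 reads in all 26. Reads that could be placed on both genes would not have been counted, and the part of this in the counts of 0 was not tested. The 47 members thus divide into 31 ubiquitous subunits with ample counts, Prosalpha1 without a count, and 15 paralogues. Most of the paralogues were near 0, and Rpt3R alone had reads in all 26 libraries.

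The testis-type paralogues together had 1205 reads over the 26 libraries, against 3651770 for the ubiquitous subunits. In the alpha ring, Prosalpha3T had 0 reads, Prosalpha4T1 had 2, Prosalpha4T2 had 1 and Prosalpha6T had 1. In the beta ring, Prosbeta2R1, Prosbeta4R1 and Prosbeta4R2 had 0 reads, Prosbeta5R2 had 3, and Prosbeta2R2 had 10. Of the 10 reads of Prosbeta2R2, 9 were in the 0% TruSeq library and 1 in the 5% TruSeq library. A count of 0 over 26 libraries allows a level of up to 0.00957 CPM, taking 3 reads as the limit and covering counting error only.

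Among the paralogues of the regulatory particle, Rpn13R had 2 reads, Rpt4R had 5, Rpn12R had 10 and Rpt6R had 38. Rpt3R, the paralogue of the base ATPase Rpt3, had 1118 reads and was the only paralogue counted in all 26 libraries. It held 92.8% of all paralogue reads. Its levels in single low-volume libraries ran from 0.589 CPM in the 20% TotalScript library, from 2 reads, to 6.42 in the 10% 5x library. As a whole they overlapped the range of 1.90 to 3.34 in TruSeq. In 2.5x and 5x, however, every library but the 1% one was above that range. Rpt3R had means of 4.59 CPM in 2.5x and 4.80 in 5x, which share pre-amplified cDNA, against 2.69 in TruSeq. Its means were 2.72 in Clontech, 2.28 in TotalScript and 2.43 in full-volume SMART-seq2, the last from 18 reads. In TruSeq it had 184, 36, 89 and 71 reads at 0, 5, 10 and 20%, which pooled to 2.88 CPM (exact Poisson 95% interval 2.60 to 3.18). The ubiquitous Rpt3 stood at 339 to 353 CPM in the same TruSeq libraries.

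Some paralogues had reads in only a few libraries. Prosbeta5R1, the paralogue of a catalytic subunit, had 8 reads in the 5% 2.5x library and 7 in the 5% 5x library, and 0 in the other 24. Rpt6R had 8 reads in each of the same 2 libraries and 0 in the other 8 libraries of the dilutions. It also had 8 and 1 reads in the 0% and 20% Clontech libraries, and 3, 2, 4 and 4 in TruSeq at 0, 5, 10 and 20%. The paired dilution libraries were made from the same pre-amplified cDNA.

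The markers of testis were low in the same libraries. Of 15 testis genes found by name, 10 had 10 reads or fewer over all 26 libraries, and Mst84Da, Mst87F, aly and sa had 0. The summed level of this list was 62.6 to 115 CPM, nearly all of it from bam, a gene of the germline of both sexes. In RNA from whole embryos, fewer cells of a type and less RNA per cell cannot be told apart, so a level near 0 says only how much of the RNA was from the gene.

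**Figure D1:**
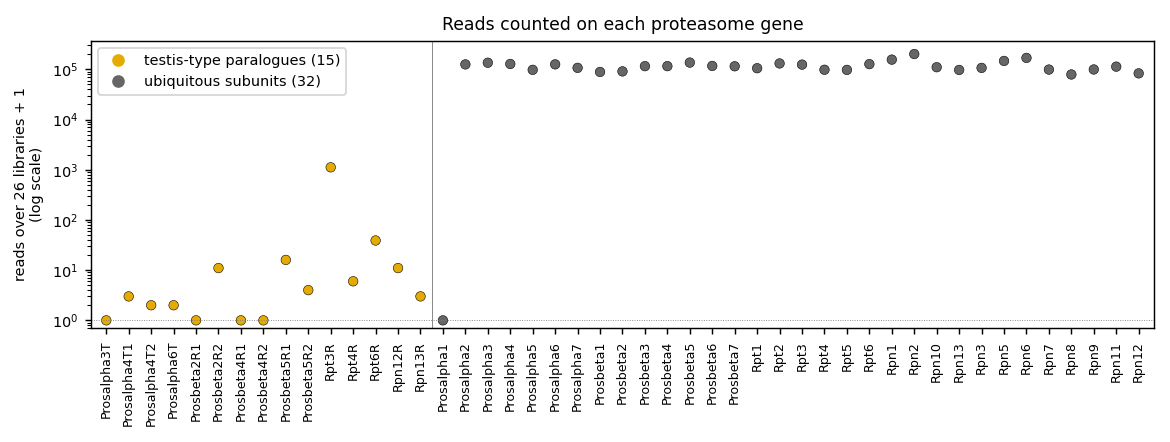
Reads counted on each of the 47 proteasome genes, summed over 26 libraries, with 1 added so that a gene at 0 sits on the dotted line (log scale). The 15 testis-type paralogues are on the left and the 32 ubiquitous subunits on the right; apart from Prosalpha1, at 0, every ubiquitous subunit lies above every paralogue, the highest of which is Rpt3R at 1118 reads.

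The 31 counted subunits together took 1.00 to 1.29% of the D. melanogaster reads with Clontech, 0.837 to 1.01% with TotalScript, 1.14 to 1.46% with SMART-seq2, 1.17 to 1.37% with 2.5x and 1.21 to 1.40% with 5x, against 1.03 to 1.07% with TruSeq. The TotalScript range lay below that of TruSeq, the Clontech range overlapped it, and the ranges of SMART-seq2 and both dilutions lay above it.

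The members varied more between the libraries of each low-volume protocol than between the TruSeq libraries. The coefficient of variation of a subunit's level had a median of 13.2% over the Clontech libraries, 17.0% with TotalScript, 18.0% with SMART-seq2, 11.3% with 2.5x and 10.98% with 5x. In TruSeq the median was 2.44% (1.02% for Rpn13 to 4.31% for Rpn8), where counting error alone gave a median of 1.02%. Over all genes past the same minimum level the median was 14.4 to 20.8% in the low-volume protocols and 3.15% in TruSeq. The widest single member was Prosbeta5 in TotalScript, at 35.8%. Depth differed between the protocols as well. Counting error gave medians of 4.08% with TotalScript, 3.67% with SMART-seq2 and 2.78% with Clontech.

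In Clontech against TruSeq, none of the 31 subunits passed the test, with 0.183% of 6016 genes called (edgeR quasi-likelihood test, Benjamini-Hochberg adjusted p under 0.05 over all genes). At an unadjusted p under 0.05, 4 of the 31 did, and 1111 of the 6016 genes. DESeq2 called 1 subunit, Prosbeta1, beside 6.43% of genes, and limma-voom called none, beside 2.59%. The log2 fold changes of the 31 had a median of 0.06 and an SD of 0.13, against a median of 0.03 and an SD of 0.21 over all genes tested. The median was 0.13 in the alpha ring, 0.12 in the beta ring, 0.05 in the base and -0.03 in the lid.

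Prosbeta1, which carries the caspase-like site, had the largest difference. Its levels were 301, 270.2, 255 and 368 CPM in Clontech, against 233, 221, 234 and 221 in TruSeq, in the order of the mixtures (0, 5, 10 and 20%). All the Clontech values were higher than all the TruSeq values, and the log2 fold change was 0.39 ± 0.10 (SE, n = 4 each), with an adjusted p of 0.15 in edgeR. Groups that do not overlap in this direction were found for 8.46% of the genes tested. Rpn2, a scaffold of the base, was the only subunit with all Clontech values below all TruSeq values, at 573, 611, 647 and 656 CPM in Clontech and 677, 668, 689 and 661 in TruSeq, and its log2 fold change of -0.11 ± 0.06 had an adjusted p of 0.33 in edgeR. Such groups were found for 6.33% of genes. Without the 10% Clontech library, 4 subunits were called higher (Prosbeta1, Prosalpha6, Rpt6 and Prosalpha5) beside 8.12% of 6011 genes called higher and 782 called in all.

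In TotalScript against TruSeq, 22 of the 31 subunits passed the test, 8 higher and 14 lower, beside 39.6% of 6047 genes called higher and 38.4% called lower (78% in all). The share of subunits called was thus near that of all genes. The median log2 fold change over the 31 was -0.19 (0.00 over all genes) and the SD 0.65 (1.00 over all genes). The lower calls lay mostly in the base of the regulatory particle. There, 9 of 10 subunits were lower and none was higher, with a median log2 fold change of -1.05. The lid had 3 higher, 3 lower and a median of 0.05, the alpha ring 3 higher, none lower and a median of 0.12, and the beta ring 2 higher, 2 lower and a median of -0.03. That the base differed from the other parts of the complex was not tested.

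**Figure D2:**
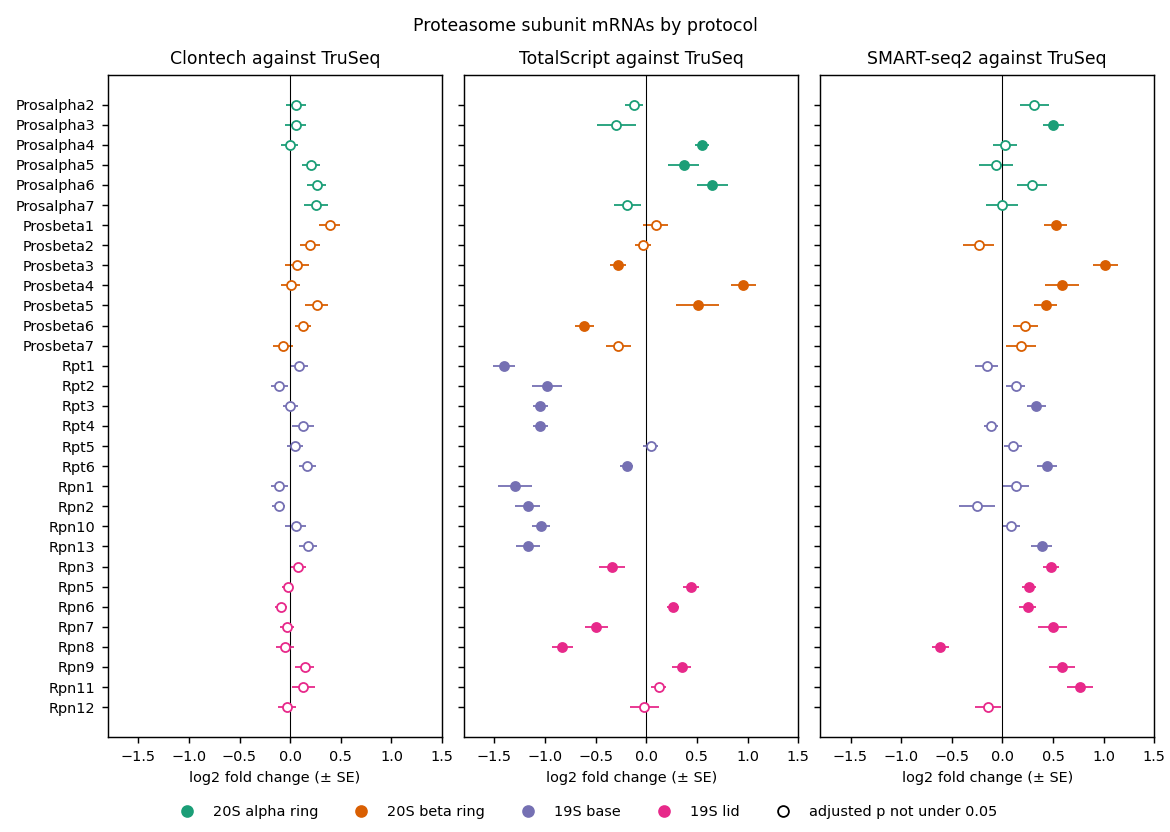
Log2 fold change of each of the 31 counted subunits in Clontech, TotalScript and SMART-seq2 against TruSeq, with its SE (n = 4 libraries in each group). Filled points passed the edgeR test at an adjusted p under 0.05 and open points did not; in TotalScript 9 of 10 base subunits lie below 0 and filled, in Clontech every point is open.

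Rpt1, a base ATPase, had the lowest log2 fold change in TotalScript. Its levels were 165, 120.4, 115 and 129 CPM in TotalScript, against 350.2, 339, 358 and 356 in TruSeq, at 0, 5, 10 and 20%. The groups were far apart, and the log2 fold change was -1.41 ± 0.11 (SE), with an adjusted p of 1.2e-06 in edgeR. Rpn1, a scaffold of the base that in yeast binds ubiquitin-like shuttle proteins, had 246, 240.1, 151 and 143 CPM in TotalScript and 471, 461, 482 and 481 in TruSeq. Its TotalScript values were all lower, with the 10 and 20% libraries lowest, and its log2 fold change was -1.30 ± 0.17 (adjusted p = 5.2e-05, edgeR). Rpn2 had 325, 377, 239 and 261 CPM in TotalScript and 677, 668, 689 and 661 in TruSeq, again without overlap, and a log2 fold change of -1.17 ± 0.13 (adjusted p = 1.3e-05, edgeR).

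The ATPases ranged widely. Rpt2, Rpt3 and Rpt4 had log2 fold changes of -0.98, -1.05 and -1.05 in TotalScript, and Rpt6 one of -0.19 ± 0.06. Rpt5 was the only base subunit not called lower, with 320.4, 279, 324 and 332 CPM in TotalScript against 307, 292, 304 and 319 in TruSeq. Its groups overlapped, and the log2 fold change was 0.04 ± 0.07 (adjusted p = 0.60, edgeR). Of the ubiquitin receptors, Rpn10 stood at -1.04 and Rpn13 at -1.17 on the log2 scale.

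Prosbeta4, a non-catalytic subunit of the beta ring, had the highest log2 fold change in TotalScript. It had 499, 412, 530.2 and 663 CPM in TotalScript, against 279.8, 269.8, 271 and 266 in TruSeq. Every TotalScript library was above every TruSeq library, and the log2 fold change was 0.96 ± 0.12 (adjusted p = 4.5e-05, edgeR). Prosalpha6, of the alpha ring, had 522, 365, 592 and 683 CPM in TotalScript and 334, 332, 350.2 and 364 in TruSeq. The lowest TotalScript library was just above the highest TruSeq library, and the log2 fold change was 0.65 ± 0.15 (adjusted p = 0.0030, edgeR). Prosalpha4, of the same ring, had 624, 618, 536 and 575 CPM in TotalScript and 413, 397, 407 and 392 in TruSeq, with no overlap and a log2 fold change of 0.55 ± 0.07 (adjusted p = 3.0e-05, edgeR).

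Of the 3 catalytic subunits, only Prosbeta5 was called in TotalScript. Prosbeta5, with the chymotrypsin-like site, had 501, 283, 495 and 722 CPM in TotalScript and 356, 344, 355 and 359.9 in TruSeq. The TotalScript libraries lay on both sides of the TruSeq range, and the log2 fold change was 0.51 ± 0.21 (adjusted p = 0.049, edgeR). Its call was lost in 7 of the 8 fits that left out 1 library, with adjusted p values of up to 0.16, and Prosalpha5 (0.37 ± 0.15, adjusted p = 0.049) lost its call in the same number. Prosbeta1 had a log2 fold change of 0.09 ± 0.12 and Prosbeta2, with the trypsin-like site, one of -0.03 ± 0.08, with adjusted p values of 0.51 and 0.73 in edgeR.

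In the TotalScript libraries, the groups of levels did not overlap for 6 subunits that were higher and 14 that were lower, beside 36% and 37% of all genes tested. The share of alignments without a unique place and the depth also differed between TotalScript and TruSeq, as given above, and their part in these differences was not tested.

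**Figure D3:**
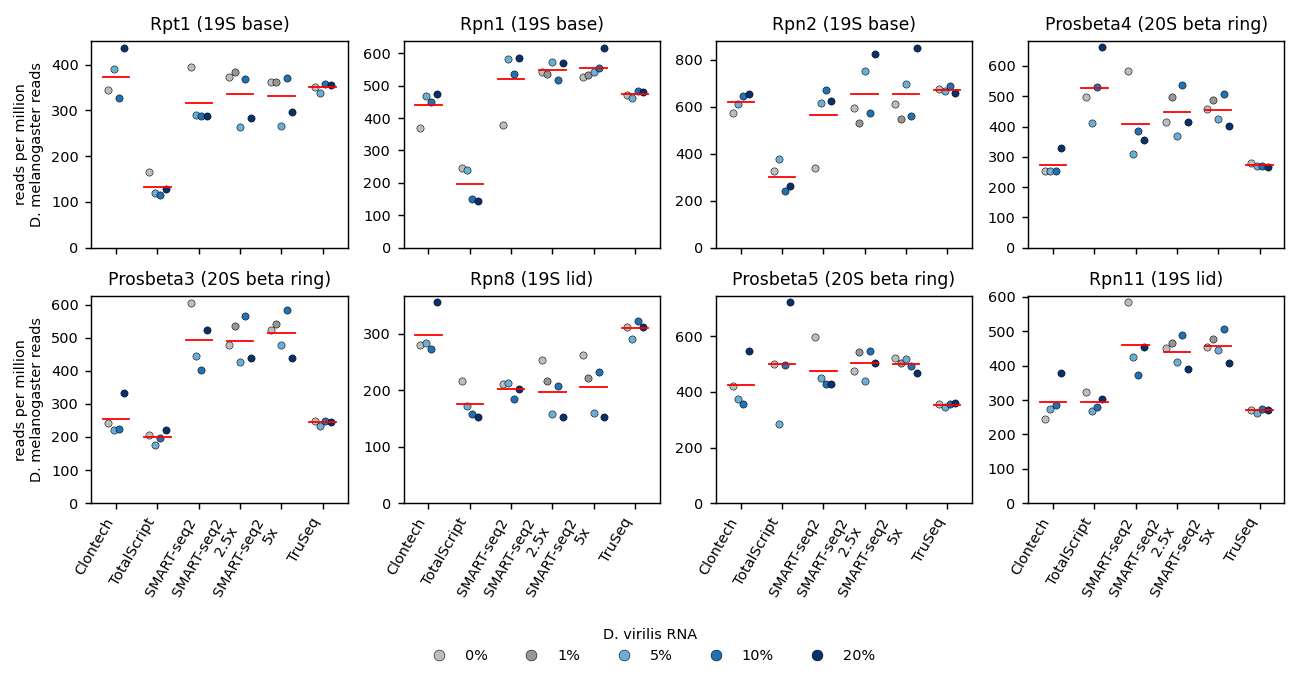
Levels of 8 subunits in every library, as CPM, for the 6 protocols (points by D. virilis percentage, red lines the mean of the protocol). Rpt1, Rpn1 and Rpn2 have their lowest means in TotalScript, Prosbeta4 is above TruSeq in TotalScript and in the SMART-seq2 protocols, and Rpn8 is below TruSeq in all of these.

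In SMART-seq2 against TruSeq, 15 of the 31 subunits passed the test, 14 higher and 1 lower, beside 39% of 6036 genes called higher and 19.8% called lower (58.8% in all). The median log2 fold change of the 31 was 0.25 (SD 0.34), but all genes tested had a median of 0.20 (SD 0.72), so that a shift of 0.20 was common to the genes tested. Scaled by TMM, which centres the genes, 7 subunits were called higher and 5 lower, beside 27.9% and 25.9% of genes. With DESeq2 11 were higher and 5 lower, beside 31.3% and 29% of genes. Without TMM, the median was 0.37 in the lid, where 6 of 8 were higher and Rpn8 was lower. It was 0.43 in the beta ring (4 of 7 higher), 0.16 in the alpha ring (1 of 6 higher) and 0.12 in the base (3 of 10 higher). With TMM, Rpn11, Rpn3 and Rpn9 of the lid were higher, and Rpn8 and Rpn12 lower. In the beta ring Prosbeta1 and Prosbeta3 were higher and Prosbeta2 lower. In the base Rpt6 was higher and Rpt1 and Rpt4 lower, and the alpha ring kept its 1 call.

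Prosbeta3, a non-catalytic subunit of the beta ring, had the highest log2 fold change. It had 604, 445, 402 and 524 CPM in SMART-seq2, against 247, 234, 249.8 and 245 in TruSeq. The groups were far apart, and the log2 fold change was 1.02 ± 0.12 (adjusted p = 9.2e-05, edgeR), or 0.84 with TMM scaling. Rpn11, the deubiquitinase of the lid, had 585, 425, 372 and 454 CPM in SMART-seq2 and 272, 263, 274 and 272 in TruSeq. All its SMART-seq2 values were higher, with a log2 fold change of 0.76 ± 0.13 (adjusted p = 0.00064, edgeR), or 0.59 with TMM scaling. Prosbeta4 had 584, 309, 385 and 357 CPM in SMART-seq2 against 279.8, 269.8, 271 and 266 in TruSeq, with no overlap and the 0% library far above the other SMART-seq2 libraries. Its log2 fold change was 0.59 ± 0.17 (adjusted p = 0.013, edgeR) and its call was lost with TMM scaling.

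Rpn8, which pairs with Rpn11 in the lid, was the only subunit called lower. It had 211, 213, 185 and 202 CPM in SMART-seq2 and 313, 291, 323 and 313 in TruSeq. The groups did not overlap, and the log2 fold change was -0.61 ± 0.08 (adjusted p = 0.00021, edgeR), or -0.78 with TMM scaling. The catalytic subunits Prosbeta1 and Prosbeta5 were called higher, with log2 fold changes of 0.53 ± 0.11 and 0.43 ± 0.11 (adjusted p = 0.0029 and 0.0082, edgeR). Prosbeta2 was not called, at -0.23 ± 0.15 (adjusted p = 0.21, edgeR). With TMM scaling it was called lower, at -0.41, and Prosbeta5 was no longer called higher.

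The 0% SMART-seq2 library stood apart from the other SMART-seq2 libraries. Its 31 subunits summed to 14645 CPM, against 11358 to 11874 in the other SMART-seq2 libraries. Its Rpn2 level was 340.1 CPM, against 618 to 673, while its Prosbeta2 and Prosbeta5 levels were above the others. Without it, 16 subunits were called higher and 6 lower, beside 45.1% and 25.7% of 6029 genes, the 6 being Rpn8, Prosbeta2, Prosalpha5, Rpt1, Rpn12 and Prosalpha7, and all 15 calls made with it were kept.

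The comparisons of TotalScript and SMART-seq2 used the same TruSeq libraries, so their values are set side by side. Rpt3 had 182, 159, 174 and 151 CPM in TotalScript, 518, 412, 403 and 402 in SMART-seq2 and 339.6, 345, 353 and 339 in TruSeq. Both low-volume ranges were apart from TruSeq, on opposite sides, with log2 fold changes of -1.05 in TotalScript and 0.33 in SMART-seq2. Rpn13, the ubiquitin receptor, had 145, 107, 94.0 and 101 CPM in TotalScript, 398, 284, 323 and 301 in SMART-seq2 and 249, 254, 249.7 and 248 in TruSeq, again on opposite sides of TruSeq, with log2 fold changes of -1.17 and 0.39.

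Prosbeta3 stood at -0.28 ± 0.08 in TotalScript beside its 1.02 in SMART-seq2. The lid subunit Rpn7 stood at -0.49 ± 0.11 in TotalScript and 0.50 ± 0.14 in SMART-seq2. The lid subunit Rpn3 stood at -0.34 ± 0.13 and 0.48 ± 0.08, and Rpt6 at -0.19 ± 0.06 and 0.44 ± 0.10. In SMART-seq2, the calls of Rpn13, Rpn7 and Rpt3 were lost with TMM scaling. In TotalScript, the calls of Rpn3 and Rpt6 were lost in 4 and 3 of the 8 fits that left out 1 library, with adjusted p values of up to 0.074 and 0.062. Prosbeta4 had log2 fold changes of 0.96 in TotalScript and 0.59 in SMART-seq2, and Rpn8 of -0.83 and -0.61. Also called in each comparison, Prosbeta5 stood at 0.51 in TotalScript and 0.43 in SMART-seq2, Rpn5 at 0.44 and 0.26, Rpn6 at 0.27 and 0.25, and Rpn9 at 0.35 and 0.59. In SMART-seq2, the calls of Prosbeta4, Prosbeta5, Rpn5 and Rpn6 were lost with TMM scaling. That of Rpn6 was also lost in 4 of the 8 fits that left out 1 library, with adjusted p values of up to 0.083. In TotalScript, the call of Prosbeta5 was lost in 7 of the 8 such fits.

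The balance between the particles was read as the summed reads of the 10 base subunits over those of the 13 counted subunits of the 20S core. This ratio depends on transcript lengths, so only its differences between libraries were read. It was 0.483, 0.578, 0.387 and 0.339 in TotalScript at 0, 5, 10 and 20%, against 0.891, 0.908, 0.907 and 0.915 in TruSeq. Each TotalScript library was far below each TruSeq library. In Clontech it was 0.812, 0.868, 0.882 and 0.778, slightly below all the TruSeq libraries. In the sampled counts the ranges overlapped, at 0.774 to 0.897 in Clontech and 0.875 to 0.933 in TruSeq.

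In SMART-seq2 the ratio was 0.607, 0.865, 0.884 and 0.857, with the 0% library alone far below the other SMART-seq2 libraries. At 0, 1, 5, 10 and 20% it was 0.764, 0.765, 0.937, 0.709 and 1.03 in 2.5x, and 0.701, 0.755, 0.834, 0.745 and 1.09 in 5x. The dilution libraries lay on both sides of the TruSeq range, and in both dilutions the 20% library was the highest.

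The ratio of the lid to the 20S core was 0.475 to 0.737 in TotalScript, 0.513 to 0.625 in Clontech, 0.549 to 0.647 in SMART-seq2, 0.524 to 0.706 in 2.5x and 0.544 to 0.741 in 5x, and each of these ranges took in the range of 0.612 to 0.618 in TruSeq. The ratio of the alpha to the beta ring was 0.998 to 1.12 in TotalScript, 0.982 to 1.04 in Clontech, 0.821 to 0.910 in SMART-seq2 and 0.994 to 1.01 in TruSeq. It was 0.758 to 0.947 in 2.5x and 0.777 to 0.932 in 5x. The libraries of SMART-seq2 and of both dilutions lay below all the TruSeq libraries. No test was made of these sums and ratios.

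**Figure D4:**
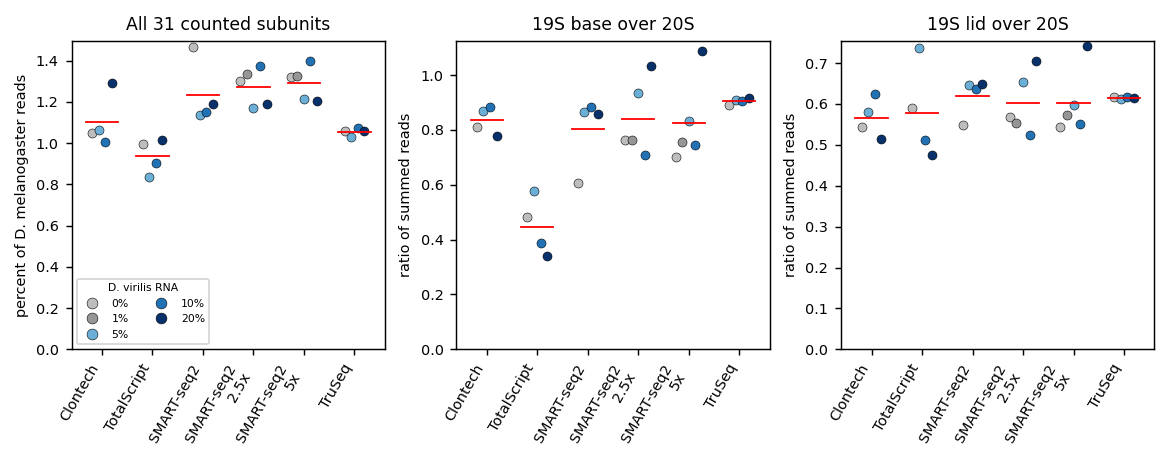
The share of D. melanogaster reads on the 31 counted subunits (left), the summed reads of the 19S base over the 20S core (middle) and of the 19S lid over the 20S core (right), 1 point per library and a red line at the mean of each protocol. The base over the core is 0.339 to 0.578 in TotalScript and 0.891 to 0.915 in TruSeq, and the 0% SMART-seq2 library is apart at 0.607.

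In 2.5x against SMART-seq2, at 0, 5, 10 and 20%, none of the 31 subunits passed the test, and 0% of 6033 genes were called (edgeR). At an unadjusted p under 0.05 there was no subunit and there were 183 genes, and DESeq2 and limma-voom called no subunit. The log2 fold changes had a median of 0.03 and an SD of 0.10, and a median SE of 0.15. The highest was that of Rpn2, at 0.28, which had 595, 751, 575 and 824 CPM in 2.5x and 340.1, 618, 673 and 626 in SMART-seq2 at 0, 5, 10 and 20%. Its groups overlapped. Rpt4 was the only subunit whose groups did not, with 313, 305, 329 and 350 CPM in 2.5x and 281, 294, 301 and 294 in SMART-seq2, beside 1.41% of genes higher without overlap and 1.21% lower. These groups also differed in experiment, pre-amplification and cycles of enrichment, which cannot be told apart from the volume.

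In 5x against 2.5x, with the mixture as a block since both dilutions used the same pre-amplified cDNA, none of the 31 subunits and not Rpt3R passed the test, and 0% of 6026 genes were called (edgeR). At an unadjusted p under 0.05 there were 3 subunits and 139 genes, and DESeq2 and limma-voom called no subunit. The log2 fold changes of the 31 had a median of 0.03, an SD of 0.04 and a median SE of 0.04, and ran from -0.02 for Rpt3 to 0.10 for Prosbeta6. The levels of the groups overlapped for every subunit, beside 0.0166% of genes that were higher without overlap and 0% that were lower. The median was 0.04 in the alpha ring, 0.03 in the beta ring, 0.00 in the base and 0.04 in the lid. Over all genes tested the median was 0.00 and the SD 0.06. Of the 31 log2 fold changes, 24 were above 0, but all come from the same library pairs and are not independent.

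Libraries of the same mixture in both dilutions were set beside libraries of different mixtures. The SD over the 31 subunits of the log2 ratio of 5x over 2.5x was 0.05 to 0.10 at the same mixture. Between mixtures, the SD had a median over pairs of libraries of 0.23 in 5x, 0.25 in 2.5x, 0.26 in SMART-seq2 and 0.04 in TruSeq. It ran from 0.09 to 0.41 over the pairs of 5x libraries and from 0.09 to 0.37 over those of 2.5x, so that its lowest values lay within the range of the matched pairs. Rpn2, for example, had 611, 548, 699, 563 and 851 CPM in 5x at 0, 1, 5, 10 and 20%, and 595, 533, 751, 575 and 824 in 2.5x, with the 20% library highest and the 1% library lowest in both.

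**Figure D5:**
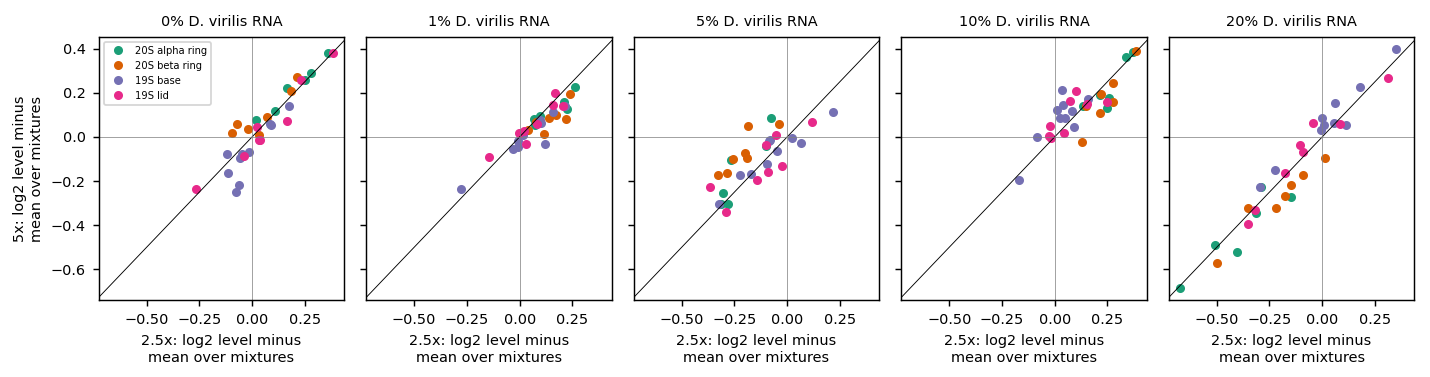
Log2 level of each of the 31 counted subunits minus its mean over the 5 mixtures of the same dilution, in 5x (vertical) against 2.5x (horizontal), 1 panel for each mixture and the line of equality in black. Points follow the line at every mixture, with most core subunits low at 20% D. virilis RNA in both dilutions.

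For the 31 counted subunits, the added D. virilis RNA did not give a detectable trend. Over the 24 libraries at 0, 5, 10 and 20%, with protocol as a factor, none of the 31 subunits passed the test of the slope and 0% of 6053 genes were called (edgeR). This fit took the 2.5x and 5x libraries of a mixture as independent, although they share pre-amplified cDNA. At an unadjusted p under 0.05 there was no subunit and there were 569 genes. The slopes had a median of -0.02 log2 units for each 10 percentage points, and an SD of 0.06. Fitted within 1 protocol, the median slope was 0.14 with Clontech, -0.03 with TotalScript, -0.15 with SMART-seq2, -0.06 with 2.5x, -0.07 with 5x and 0.01 with TruSeq. No subunit passed within any protocol alone, and 38 genes passed within TruSeq.

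Other genes of the pathway are set beside the shares of all genes called, which were 78% in TotalScript and 58.8% in SMART-seq2. Of 5 genes for assembly and regulation of the proteasome (Pomp, REG, PI31, cnc and Uch-L5), 2 were higher and none lower in TotalScript, and 4 were higher and cnc was lower in SMART-seq2. Of 10 genes for ubiquitin and its handling, 4 were higher and 5 lower in TotalScript, and 5 higher and 4 lower in SMART-seq2. The ubiquitin-activating enzyme Uba1 was lowest in TotalScript, at -1.37 on the log2 scale, and the polyubiquitin gene Ubi-p63E lowest in SMART-seq2, at -1.54. Rad23, a shuttle that carries ubiquitinated proteins to the proteasome, was highest in both, at 1.26 and 1.05.

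Of the 8 subunits of the COP9 signalosome, a complex related to the lid, 4 were higher and 2 lower in TotalScript and 6 were higher and none lower in SMART-seq2. Their median log2 fold change was 0.33 in TotalScript and 0.46 in SMART-seq2, beside 0.00 and 0.20 over all genes tested. None of the genes of these 3 lists was called in Clontech.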

How the data were processed

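Base calls (CASAVA 1.8 in the submitters' processing notes) gave single-end reads, which the authors aligned with STAR against the FlyBase genomes of both species together. HTSeq then assigned reads to gene names, ignoring strand. The deposited values are raw counts of 2 kinds, one from all alignments and one from an equal number drawn at random by the authors. The columns carry the label FPKM. Categories outside genes took 17.3 to 52.7% of the alignments at full depth and were left out. There were 0 columns of per-sample values left unused.

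Full-depth counts of D. melanogaster genes were fitted with edgeR's quasi-likelihood test, with the D. melanogaster total as library size, for genes with a mean of at least 5 CPM (counts scaled to a D. melanogaster total of 1000000) in the libraries compared. Genes were called at a Benjamini-Hochberg adjusted p under 0.05 over all genes tested. The SE is the log2 fold change divided by the square root of F. In counts simulated from these libraries, a 2-fold change was given to 200 genes. It was called for 98.5% of them in Clontech against TruSeq (6016 genes) and 91.5% in SMART-seq2 against TruSeq (6036 genes). The simulation gave each gene the same spread in both groups. In the data the common coefficient of variation was 17.3% in Clontech, 23.6% in SMART-seq2 and 3.03% in TruSeq. Recovery at such unequal spreads was not tested. Tools were R 4.3.3 with edgeR 4.0.16, limma 3.58.1 and DESeq2 1.42.0, and matplotlib 3.10.9, scipy 1.17.1, pandas 2.3.3 and numpy 2.4.6 under Python 3.11.15.

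The pairing by mixture is given by the methods only for 5x and 2.5x, which share pre-amplified cDNA. There the deviations of same-mixture libraries from their group means correlated at 0.82 to 0.92 over all genes tested.

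Named with values were the paralogues, the catalytic subunits, the 2 highest and 2 lowest ubiquitous subunits by TruSeq level, up to 3 called subunits in each direction per comparison and those called in opposite directions. Others were chosen after their values were seen (Rpt5, Prosalpha5, Rpn12, Prosalpha7, Rpn10, Rpt2, Rpt4, Rpn5, Rpn6, Rpn9 and Prosbeta6). The members and lists were chosen with earlier results of these data known. RefSeq names (Release 6 assembly) were used for names only, and sequences and transcript lengths are not analysed here.

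Alternatives were sampled counts, TMM, DESeq2, limma-voom with sample weights, other minimums, each library left out, the mixture as a block, a joint fit over 24 libraries and the 1% libraries added. Intervals and floors cover counting error only.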

Additional observations from a re-analysis of the deposited data

Results flagged for a closer look

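Levels and ratios were screened in each group of 4 or 5 libraries for a value set apart from the rest (Dixon's ratio at 95%). This marked 13 of 120 groups. Chance marks about 1 in 20 of independent groups, but these groups share libraries, cDNA and subunits, so an excess over chance was not tested. Of the 13, 8 lay in the 0% SMART-seq2 library. Its summed level of the 31 subunits was 14645 CPM (11358 to 11874 in the other SMART-seq2 libraries), its base over core ratio 0.607 (0.857 to 0.884) and its lid over core ratio 0.549 (0.637 to 0.647). Its Rpn2 level was low, at 340.1 CPM (618 to 673 in the others). The other subunits marked there were high, with Prosbeta2 at 360.2 (216 to 229), Prosbeta5 at 596 (427 to 449), Rpt1 at 395 (287 to 291) and Rpt3 at 518 (402 to 412).

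In the 20% Clontech library, Prosbeta4 had 329.7 CPM (253 to 254 in the other Clontech libraries) and Rpn8 had 356 (274 to 284). In the 20% library of 2.5x, Rpt6 had 382 CPM (475 to 502 in the other 2.5x libraries). In the 20% library of 5x, the lid over core ratio was 0.741 (0.544 to 0.597 in the other 5x libraries) and Prosalpha6 had 301 CPM (457 to 504).

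Outside the D. melanogaster genes, the D. virilis gene Dvir\Pros28.1, the namesake of Prosalpha4 under its older name, had 3, 71, 268 and 462 reads in TruSeq at 0, 5, 10 and 20%. It was above its 0% count in each mixed TruSeq library. Dvir\Pros28.1B had 0 reads in all 26 libraries.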

How the results depend on the processing

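The number of subunits called stayed within 1.5 times the first count in every alternative run, apart from Clontech against TruSeq, where DESeq2 called 1 and leaving out 1 library gave 0 to 4. Leaving out 1 library gave 18 to 24 calls in TotalScript and 14 to 22 in SMART-seq2, against TruSeq. The first fits called 22 and 15 subunits there, beside 78% and 58.8% of all genes tested. Directions were followed in TotalScript and SMART-seq2 against TruSeq, and not for all subunits. Those followed were the catalytic subunits, those with the largest called differences and those called in opposite directions. Among these, directions turned for subunits that were not called. Prosbeta2 in TotalScript turned under limma-voom (0.0034). Prosalpha4 in SMART-seq2 turned under TMM (-0.15), DESeq2 (-0.16) and limma-voom (-0.092), and Rpn1 in SMART-seq2 under TMM (-0.031) and DESeq2 (-0.040). With 1 library left out, Prosbeta1 and Prosbeta2 in TotalScript ran from -0.021 to 0.20 and from -0.089 to 0.037, and Prosalpha4 in SMART-seq2 from -0.11 to 0.093. The causes were not tested. With the mixture as a replicate block, 0 subunits were called in Clontech, beside 42 of 6016 genes. In TotalScript 20 were called, beside 4469 of 6047 genes. The block gave 14 in SMART-seq2 and 0 in 2.5x, and without it 0 were called in 5x. Outside the dilutions, the libraries of a mixture share only the mixture, and their correlations ran from -0.37 to 0.29. In the sampled counts 7 paralogues had any read, against 11 at full depth, which has more reads. A version by coding length was not run, since lengths are not used here. Depth limits the paralogues: most had 10 reads or fewer in all.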
